A study of Arabidopsis thaliana with 10 samples.

Results

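The genes described here are the transcripts of the Arabidopsis plastid genome other than those of the ndh genes and of the genes read by the nuclear-encoded plastid RNA polymerase. They were taken from the count table as every locus whose identifier starts with ATCG and whose raw counts summed to at least 50 over 10 libraries, after 10 ndh loci and 9 rpo, accD, clpP and ycf loci had been left out by identifier. This gave 50 members among 133 ATCG loci and 33602 loci in all. A further 64 ATCG loci stayed under 50 counts, 38 of them at 0 in every library. The members just inside the minimum had 51, 60 and 63 counts, and the loci just outside it had 46, 32 and 32.

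The count table gives locus identifiers without gene symbols. Of the 50 members, 8 are described by symbol, 5 paired with their identifiers through the study's list of RNA editing sites and 3 through notes in the RefSeq annotation. The other 42 members are therefore described by their numbers, and an identifier is printed for 4 of them, 2 that rose and 2 that fell. Which of the 42 are tRNA or rRNA genes, or lie in 2 copies, was not looked up. The members are therefore not to be read as protein-coding genes alone.

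Whole seedlings of 2 transgenic Col-0 lines were sequenced on day 8, with 2 libraries in each of 5 groups. P1-12 carries a dexamethasone (Dex)-inducible dCas9-KRAB repressor together with a single-guide RNA, P1, driven by the U6-26 promoter and directed to MORF2, a nuclear gene for a plastid RNA editing factor. P1-12 was grown with the solvent alone (DMSO, 0.1%), with 0.025 μM Dex or with 0.25 μM Dex. KRAB carries the inducible repressor without a guide and was grown with 0.25 μM Dex or with DMSO. Both lines thus hold the same inducible repressor, P1-12 is 1 line among those raised with this guide, and the 2 libraries of a group are biological replicates by the study's methods. Whether they came from separate cultures is not given in the sources used here, and p-values measure the spread between these libraries.

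The plastid genome holds genes for the cores of both photosystems, the cytochrome b6f complex, the ATP synthase, the large subunit of Rubisco and part of the plastid ribosome. Nuclear genes supply the other subunits of the same complexes, so each complex is built from products of both genomes. In leaves most plastid genes for photosynthesis are read by the plastid-encoded RNA polymerase, and many plastid genes are transcribed in groups and then cut and trimmed into smaller RNAs.

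Library totals ran between 9139050 and 40544617 counts. MORF2 (AT2G33430) had 54.4 and 58.5 counts per 1000000 library counts (CPM) in P1-12 (+0.25 μM Dex), against 109 and 114 CPM in P1-12 (+DMSO), a log2 fold change of -1.07 ± 0.08 (SE; edgeR quasi-likelihood test, adjusted p = 3.82e-08). At 0.025 μM Dex it had 107 CPM in both P1-12 libraries, and the fall of 0.10 on the log2 scale did not pass the test (edgeR adjusted p = 0.51). Summed over 8 shoot markers, the CPM were 5832 and 6215 in P1-12 (+0.25 μM Dex) and lay between 13800 and 16781 in the other 8 libraries. RBCS1A (4200 against 10700 CPM on average in P1-12 with 0.25 μM Dex and with DMSO) and CAB3 (1640 against 5060) made up most of this sum, and RBCS1A is also among the nuclear genes listed further on. By mean CPM 5 of the 8 were lower and 3 higher, among them STM (12.8 against 2.23) and SPCH (53.4 against 6.72). Summed over 8 root markers they were 2955 and 3878, and 3443 to 4569 in the others, most of it PYK10 (3280 against 3940). By mean CPM 5 of these were lower and 3 higher, among them TIP2;3 (62.1 against 14.4) and CASP1 (39.4 against 26.8). None of these 16 markers was at 0 in any library. The 146 ATMG (mitochondrial) loci took 0.328% and 0.255% of the counts in P1-12 (+0.25 μM Dex), and 0.0623% to 0.0848% in the other libraries. The part of these shifts in the results below was not tested.

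The 50 members together took a small share of each library. In P1-12 the share was 0.772% and 0.737% with DMSO, 0.728% and 0.600% with 0.025 μM Dex, and 0.680% and 0.516% with 0.25 μM Dex. It was 0.681% and 0.650% in KRAB (+0.25 μM Dex), against 0.815% and 0.836% in KRAB (+DMSO). Both libraries with 0.25 μM Dex thus lay below both DMSO libraries of the same line, in P1-12 as in KRAB. Each group had 2 libraries, and an exact two-sided permutation test of 2 against 2 cannot go below p = 0.33.

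A single locus, ATCG00480, decided much of that sum. It took 40.6% ± 2.7 of the member counts in P1-12 (+0.25 μM Dex), against 59.3% ± 0.64 in P1-12 (+DMSO) (SD, n = 2 each). Without it the other 49 members took 0.417% and 0.297% of the counts in P1-12 (+0.25 μM Dex), against 0.310% and 0.303% in P1-12 (+DMSO), so that these groups overlapped. In KRAB the 49 members took 0.274% and 0.240% with 0.25 μM Dex, against 0.322% in both libraries with DMSO.

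**Figure D1:**
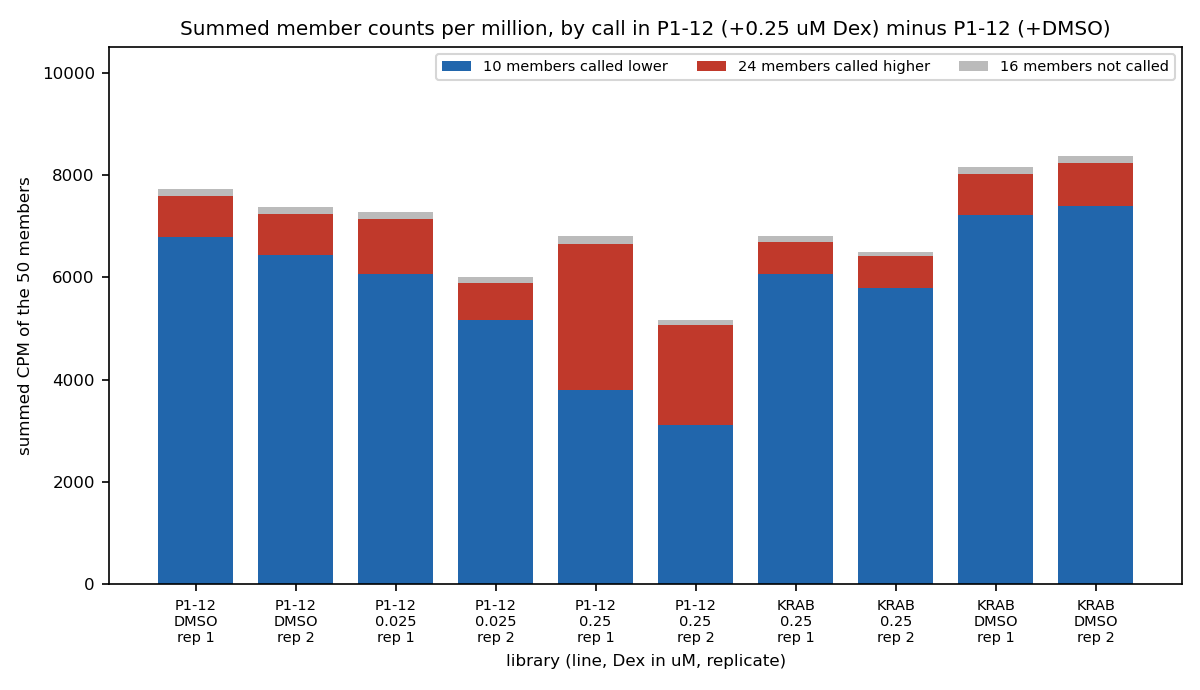
Stacked bars give the summed CPM of the 50 members in each of the 10 libraries, split by the call in P1-12 (+0.25 μM Dex) minus P1-12 (+DMSO). The 24 members called higher summed to 2858 and 1954 CPM in P1-12 (+0.25 μM Dex) and to no more than 1082 CPM in any other library.

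The comparison of P1-12 (+0.25 μM Dex) with P1-12 (+DMSO) asks what changed when the repressor and the MORF2 guide were both active. The members moved in both directions. In edgeR at an adjusted p under 0.05, 24 of the 50 were higher and 10 were lower, that is 48% and 20%, beside 27.1% and 26.7% of all 20680 loci tested. The median log2 fold change was 0.69 over the members and -0.0015 over all loci tested. With the study's stricter rule for a significantly differentially expressed gene (SDEG, a log2 change of at least 1 and an adjusted p under 0.0001), 12 members were higher and 5 lower, beside 5.90% and 7.20% of all loci. In bulk seedlings, a change in the make-up of cells and a change in plastid RNA per cell cannot be told apart.

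The 24 members called higher covered log2 fold changes between 0.56 and 3.59 with a median of 2.18. Summed, the 24 members had 2858 and 1954 CPM in P1-12 (+0.25 μM Dex), against 815 and 818 CPM in P1-12 (+DMSO). The 10 members called lower covered -2.36 to -0.66 with a median of -1.09, and summed to 3799 and 3105 CPM, against 6781 and 6427 CPM. The largest fall belonged to a member with only 67 counts over all libraries. The 10 members called lower included the most counted ones, with a median of 32076.5 counts over all libraries, whereas the 24 called higher had a median of 1081.5 and the 16 not called a median of 297.

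Among the members with a symbol, the photosynthesis genes included the largest rises. atpF (ATCG00130) encodes a subunit of the membrane part of the ATP synthase, and lies at Pltd:11529-12798 on the minus strand in RefSeq TAIR10.1, in 2 coding parts around an intron. It had 41.8 and 23.4 CPM in P1-12 (+0.25 μM Dex), against 4.09 and 4.05 CPM in P1-12 (+DMSO). Both treated libraries lay well above both DMSO libraries, although they also differed between themselves. The log2 fold change was 2.91 ± 0.34 (SE, edgeR adjusted p = 5.72e-06).

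psbE (ATCG00580, Pltd:64071-64322, minus strand) encodes a cytochrome subunit of the photosystem II core. It had 19 and 15 counts in P1-12 (+0.25 μM Dex), against 0 and 5 counts in P1-12 (+DMSO), that is 2.08 and 1.47 CPM against 0 and 0.397 CPM. The groups did not overlap, but the values rest on few counts. Its log2 fold change of 3.03 ± 0.79 passed the test (SE, edgeR adjusted p = 0.0049), and without P1-12 (+DMSO) replicate 2, which leaves only the library at 0, the fitted value of 7.79 depends on the prior count and is no bound.

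psbZ (ATCG00300, Pltd:35751-35939, plus strand) encodes a small subunit of photosystem II. It had 9 and 4 counts in P1-12 (+0.25 μM Dex), against 8 and 6 counts in P1-12 (+DMSO). The groups overlapped. The log2 difference of 0.21 had a 95% interval of -1.11 to 1.52, and a change inside that interval was not detectable at this depth.

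cemA (ATCG00530, Pltd:60741-61430, plus strand) encodes a protein of the chloroplast envelope. It had 17.2 and 10.2 CPM in P1-12 (+0.25 μM Dex), against 5.86 and 5.47 CPM in P1-12 (+DMSO), with no overlap. It rose by a log2 fold change of 1.17 ± 0.27 (SE, edgeR adjusted p = 0.0023). matK (ATCG00040, Pltd:2056-3570, minus strand), which encodes an intron maturase and lies inside trnK in the annotation, had 39.1 and 26.6 CPM, against 26.6 and 26.9 CPM. One treated library of matK was above both DMSO libraries and the other was not, and its log2 difference of 0.20 had a 95% interval of -0.20 to 0.60 (edgeR adjusted p = 0.39). Reads of matK and of trnK may not be told apart by the counting.

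None of rps14, rpl20 and rpl2, genes for plastid ribosomal proteins, passed the test in this comparison. rps14 (ATCG00330, Pltd:36938-37240, minus strand), of the small subunit, had 26.0 and 17.9 CPM in P1-12 (+0.25 μM Dex), against 20.4 and 27.1 CPM in P1-12 (+DMSO). The groups overlapped, and its log2 difference of -0.21 had a 95% interval of -0.63 to 0.22 (edgeR adjusted p = 0.404).

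rpl20 (ATCG00660, Pltd:68512-68865, minus strand), of the large subunit, had 41 and 15 counts in P1-12 (+0.25 μM Dex), against 19 and 11 counts in P1-12 (+DMSO). Its log2 difference of 1.23 ± 0.51 (SE) did not pass (edgeR adjusted p = 0.057), was 0.24 without P1-12 (+0.25 μM Dex) replicate 1, and was called, at 1.83, without replicate 2 of that group. rpl2 (ATCG01310) is annotated in 2 copies, at Pltd:84337-85843 on the minus strand and at Pltd:152806-154312 on the plus strand, and how reads that fit both copies were counted is not given in the sources used here. The values are of ATCG01310 alone, and another member without a symbol may hold the other copy. ATCG01310 had 2.08 and 1.76 CPM in P1-12 (+0.25 μM Dex), both below the 2.39 and 2.94 CPM of P1-12 (+DMSO), and its log2 difference of -0.56 had a 95% interval of -1.61 to 0.48.

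**Figure D2:**
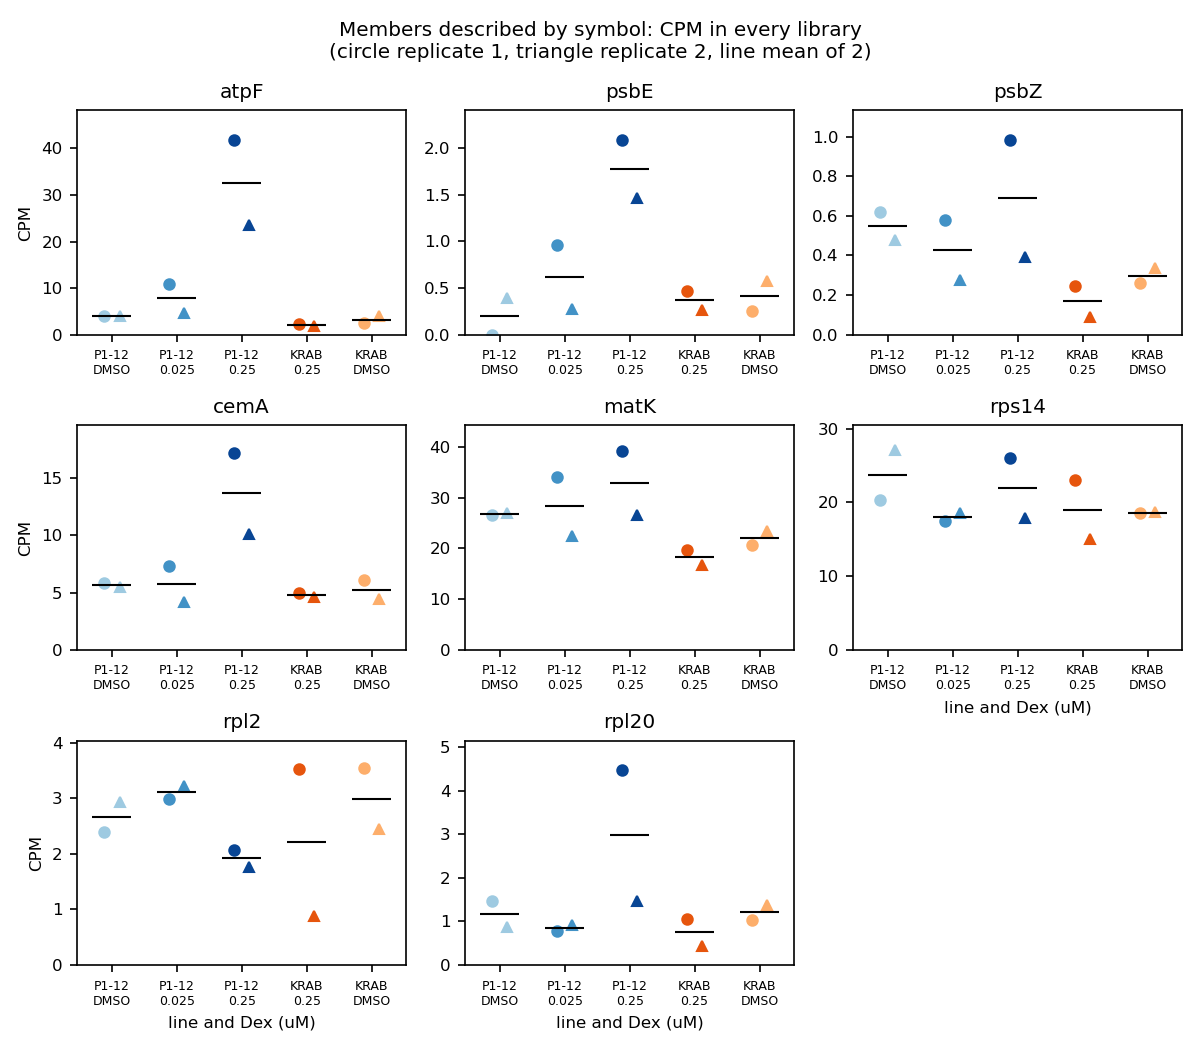
Each panel gives the CPM of 1 member with a symbol in the 10 libraries, with circles for replicate 1, triangles for replicate 2 and a line at the mean of both. In atpF, psbE and cemA both P1-12 libraries with 0.25 μM Dex lie above every other library, and in rps14 they lie among the others.

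Per kilobase of coding length, the order of the members described by symbol differed between these groups. In P1-12 (+0.25 μM Dex) rps14 had 72.5 ± 19.1 CPM per kb, atpF 58.8 ± 23.4, matK 21.7 ± 5.8 and cemA 19.8 ± 7.2 (SD, n = 2). rps14 and atpF did not differ beyond their spread, nor did matK and cemA. In P1-12 (+DMSO) rps14 had 78.2 ± 15.6 CPM per kb, matK 17.7 ± 0.14, cemA 8.21 ± 0.40 and atpF 7.33 ± 0.05. The level of atpF per kb thus came next to that of rps14 with 0.25 μM Dex and below that of matK with DMSO. With DMSO atpF (53 and 51 counts) and cemA (76 and 69 counts) were close, and their order is not settled by so few counts. psbE, rpl20, psbZ and rpl2 had under 10 CPM per kb in both groups.

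Of the members without a symbol, ATCG00140 had the largest rise. It had 191 and 98 counts in P1-12 (+0.25 μM Dex), against 11 and 19 counts in P1-12 (+DMSO), or 20.9 and 9.57 CPM against 0.848 and 1.51 CPM. The log2 fold change was 3.59 ± 0.55 (SE, edgeR adjusted p = 6.79e-05). ATCG00020 had the most counts among the 6 largest rises, with 306 and 238 CPM, against 31.0 and 27.2 CPM. Its log2 fold change was 3.13 ± 0.28 (SE, edgeR adjusted p = 4.03e-07), an 8.77-fold rise that rests on 2797 and 2436 counts in the treated libraries.

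ATCG00480, which had the most counts of all members, had 2632 and 2193 CPM in P1-12 (+0.25 μM Dex), against 4613 and 4341 CPM in P1-12 (+DMSO). It fell by 0.98 ± 0.10 on the log2 scale (SE, edgeR adjusted p = 2.17e-06). ATCG00800 had 228 and 178 CPM, against 481 and 464 CPM, and fell by 1.31 ± 0.11 (SE, edgeR adjusted p = 2.25e-07). In both loci the treated libraries lay clearly below the DMSO libraries. Replicate 1 was above replicate 2 by 0.27 (ATCG00480) and 0.36 (ATCG00800) on the log2 scale with 0.25 μM Dex, and by 0.10 and 0.06 with DMSO.

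**Figure D3:**
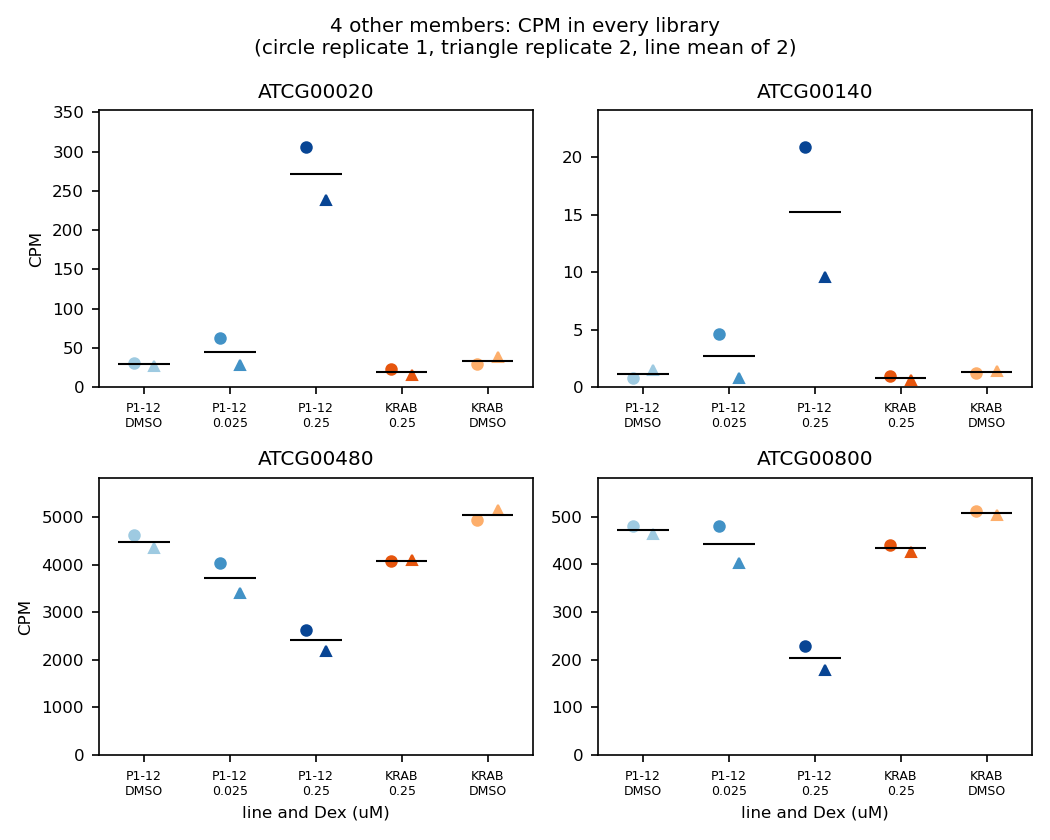
Each panel gives the CPM of 1 of 4 members without a symbol in the 10 libraries, with circles for replicate 1, triangles for replicate 2 and a line at the mean. ATCG00020 and ATCG00140 stand highest in P1-12 (+0.25 μM Dex), and ATCG00480 and ATCG00800 stand lowest there.

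In the order of locus numbers, some members with the same call followed each other. The longest run of falls held 6 consecutive members, ATCG00800 among them, with log2 fold changes between -1.31 and -0.66. ATCG00480 and the member before it made a run of 2 falls, of -0.98 and -1.07, and the next 5 members, which end with psbE and include cemA, were all called higher, between 1.17 and 3.53. Another run of 5 rises included atpF and ATCG00140 and ran between 0.77 and 3.59. Locus numbers are identifiers, and the positions of the members without a symbol were not looked up. Loci left out by the rule or by the minimum can fall between members of a run. How many runs such an order would give without any link between neighbours was not tested.

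**Figure D4:**
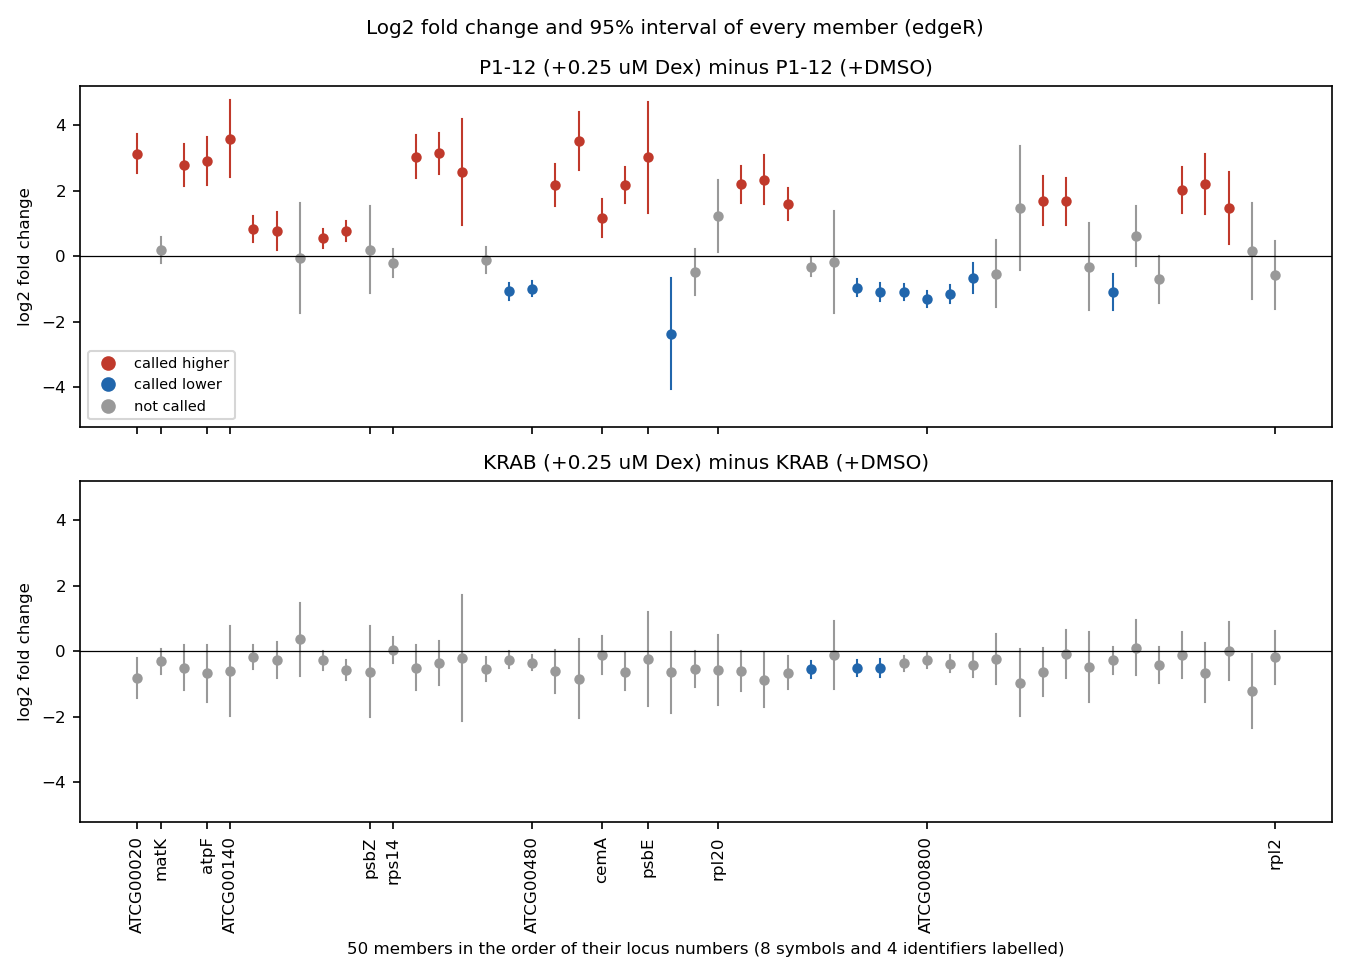
Points give the log2 fold change of each of the 50 members in the order of locus numbers, with bars for the 95% interval, in P1-12 (+0.25 μM Dex) minus P1-12 (+DMSO) above and KRAB (+0.25 μM Dex) minus KRAB (+DMSO) below. In P1-12 24 members are called higher and 10 lower, and in KRAB 46 of the 50 points lie below 0 with 3 called (22 with no filter and 0 scaled to all ATCG counts).

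Nuclear genes for subunits of the same complexes moved in 1 direction. Of 32 nuclear genes for subunits of the photosystems, the cytochrome b6f complex, the ATP synthase and Rubisco, 31 were called lower at 0.25 μM Dex against DMSO in P1-12 and none was called higher, with a median log2 fold change of -1.33. All 17 listed nuclear genes for plastid ribosomal proteins were lower, with a median of -1.72. The same comparison gave a median of 0.69 over all 50 members, 24 of them called higher and 10 lower. As the members were not grouped by complex, this median is not matched to either list of nuclear genes.

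The comparison of P1-12 (+0.025 μM Dex) with P1-12 (+DMSO) addresses the lower dose. No member passed the edgeR test in either direction, beside 3.93% of all loci called higher and 2.90% called lower. At an unadjusted p under 0.05 there were 4 higher and 2 lower members, but the share over all loci at that threshold is not given here. DESeq2 called 0 higher and 2 lower, beside 651 and 507 of 20680 loci. With no filter on low counts 10 were called higher and 3 lower, beside 1231 and 990 of 24782 loci. Scaled to all ATCG counts, a sum made mostly of the members themselves, 7 were called higher, beside 921 of 20680 loci. The median log2 fold change was 0.05 over the members. Of the nuclear genes, 27 of 32 for photosynthetic subunits and 14 of 17 for plastid ribosomal proteins were lower at this dose, with medians of -0.37 and -0.29.

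The 2 libraries with 0.025 μM Dex stood apart from each other. Of the 24 members called higher at 0.25 μM, 22 were above both P1-12 (+DMSO) libraries in P1-12 (+0.025 μM Dex) replicate 1, but only 9 were in replicate 2, where 10 were below both. The 24 were picked against the same DMSO libraries, which favours values above them, and the share over all loci is not given here. These counts therefore describe the gap between the replicates and are no test of the lower dose. Their summed level was 1082 CPM in replicate 1 and 723 CPM in replicate 2, against 815 and 818 CPM in P1-12 (+DMSO). atpF had 10.9 and 4.70 CPM, ATCG00020 had 62.8 and 28.3 CPM, and ATCG00140 had 4.63 and 0.829 CPM in replicates 1 and 2. Leaving out either of these replicates leaves 1 library at that dose that is assumed to vary like the other groups. Counts of members called in such fits are not given here.

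The 10 members that fell at 0.25 μM summed to 6060 and 5161 CPM at 0.025 μM, against 6781 and 6427 CPM with DMSO. They too were picked against these DMSO libraries, which favours values below them. ATCG00480 had 4041 and 3401 CPM, both below the DMSO libraries, and a log2 difference of -0.31 with a 95% interval of -0.53 to -0.08 (edgeR adjusted p = 0.103). ATCG00800 had 481 and 403 CPM, and overlapped the DMSO libraries.

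Between the doses, P1-12 (+0.25 μM Dex) against P1-12 (+0.025 μM Dex), 22 members were higher and 10 lower in edgeR, 44% and 20%, beside 23.1% and 23.6% of all loci, and 7 and 2 were SDEGs, beside 3.16% and 4.56%. This comparison shares the libraries of the higher dose with the one against DMSO. ATCG00020 differed by 2.53 ± 0.27, ATCG00140 by 2.43 ± 0.49 and atpF by 2.01 ± 0.32 on the log2 scale (SE; edgeR adjusted p = 4.3e-06, 0.00103 and 0.000137). cemA was higher by 1.20 ± 0.28 (edgeR adjusted p = 0.00301), and was no longer called without P1-12 (+0.25 μM Dex) replicate 1, at 0.78, or P1-12 (+0.025 μM Dex) replicate 2, at 0.82. rpl20 was called higher with 41 and 15 counts, against 8 and 10 counts, at 1.73 ± 0.56 (edgeR adjusted p = 0.0214), a call that leaving out P1-12 (+0.25 μM Dex) replicate 1 or either library with 0.025 μM Dex removed, with values of 0.73, 1.63 and 1.85. ATCG00800 differed by -1.17 ± 0.11 and ATCG00480 by -0.68 ± 0.10 (edgeR adjusted p = 1.21e-06 and 0.000105).

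P1-12 (+0.25 μM Dex) was also set against KRAB (+0.25 μM Dex), where the repressor is induced without the guide. Here 27 members were higher and 8 lower in edgeR, 54% and 16%, beside 27.7% and 28.6% of all loci. As SDEGs, 16 were higher and 1 lower, beside 5.80% and 6.88%. The median was 0.90 over the members and -0.02 over all loci. ATCG00140 had 20.9 and 9.57 CPM in P1-12 (+0.25 μM Dex), against 1.01 and 0.622 CPM in KRAB (+0.25 μM Dex), a log2 fold change of 4.01 ± 0.52 (SE, edgeR adjusted p = 1.39e-05). atpF had 41.8 and 23.4 CPM, against 2.39 and 1.95 CPM, at 3.79 ± 0.34 (SE, edgeR adjusted p = 4.44e-07). These P1-12 libraries are the same as in the comparison with DMSO.

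The members with a symbol called in this comparison were all higher. psbE had 2.08 and 1.47 CPM in P1-12 (+0.25 μM Dex), against 0.469 and 0.266 CPM in KRAB (+0.25 μM Dex), a log2 fold change of 2.02 ± 0.60 (SE, edgeR adjusted p = 0.0109), and cemA differed by 1.44 ± 0.26 (edgeR adjusted p = 0.000312). The call for psbE did not hold without P1-12 (+0.25 μM Dex) replicate 1, at 1.76. matK had 39.1 and 26.6 CPM, against 19.6 and 16.8 CPM, a log2 fold change of 0.77 ± 0.19 (edgeR adjusted p = 0.00282), which was 0.48 and no longer called without the same library. rpl20 differed by 1.69 ± 0.49 (edgeR adjusted p = 0.00893), and by 0.69 and no longer called without it. psbZ, with 9 and 4 counts against 10 and 1 in libraries of unequal depth, just passed at 1.62 ± 0.65 (edgeR adjusted p = 0.0467), and was not called without P1-12 (+0.25 μM Dex) replicate 1, KRAB (+0.25 μM Dex) replicate 1 or KRAB (+0.25 μM Dex) replicate 2, at 0.85, 2.75 and 1.37, nor with no filter or in DESeq2, at 1.62 and 1.82. Among the falls, ATCG00800 had 228 and 178 CPM, against 441 and 426 CPM, at -1.14 ± 0.11, and ATCG00480 differed by -0.80 ± 0.10 (edgeR adjusted p = 8.58e-07 and 1.45e-05).

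KRAB (+0.25 μM Dex) against KRAB (+DMSO) shows what Dex and the repressor did without the guide. No member was called higher and 3 were lower in edgeR, 6%, beside 1.76% of all loci higher and 0.580% lower. At an unadjusted p under 0.05, 0 members were higher and 15 were lower, but the share over all loci at that threshold is not given here. DESeq2 called 0 higher and 5 lower, beside 264 and 139 of 20680 loci. With no filter on low counts 22 were called lower, beside 497 of 24782 loci. Scaled to all ATCG counts, a sum made mostly of the members themselves, no member was called lower, beside 11 of 20680 loci. The log2 difference was negative in 46 of the 50 members, with a median of -0.45, whereas the median over all loci was 0.0027. The 24 members that rose in P1-12 summed to 628 and 618 CPM in KRAB (+0.25 μM Dex), against 804 and 846 CPM in KRAB (+DMSO). The 10 that fell in P1-12 summed to 6069 and 5793 CPM, against 7214 and 7389 CPM. Both sets were thus lower in both treated libraries, in a line where MORF2 had 115 and 123 CPM, against 121 and 113 CPM.

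The 3 members called lower in KRAB covered log2 fold changes between -0.55 and -0.51. ATCG00480 had 4068 and 4097 CPM, against 4929 and 5141 CPM, and its difference of -0.35 ± 0.10 was not called (SE, edgeR adjusted p = 0.106). None of these 3 calls held without KRAB (+0.25 μM Dex) replicate 2, KRAB (+DMSO) replicate 1 or KRAB (+DMSO) replicate 2.

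With DMSO alone, P1-12 and KRAB differed in no member in edgeR, beside 0.0193% of all loci called higher and 0 called lower. At an unadjusted p under 0.05 there were 2 members, both lower, but the share over all loci at that threshold is not given here. DESeq2 called 0, beside 13 higher and 2 lower of 20680 loci. The median log2 difference was -0.07, and that of atpF was 0.22 with a 95% interval of -0.66 to 1.09.

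The difference between the lines in the response to 0.25 μM Dex was tested as an interaction. It was positive and called for 22 members and negative and called for 7 in edgeR, 44% and 14%, beside 20.8% and 22.8% of all loci. By the SDEG rule there were 7 and 1, beside 3.35% and 5.11%. ATCG00140 had the larger rise in P1-12 by 4.18 ± 0.86, ATCG00020 by 3.94 ± 0.40, atpF by 3.57 ± 0.53, psbE by 3.26 ± 1.07 and cemA by 1.27 ± 0.39 on the log2 scale (SE; edgeR adjusted p = 0.00138, 3.06e-06, 0.000105, 0.0237 and 0.0158). For ATCG00800 and ATCG00480 the interaction was -1.04 ± 0.15 and -0.64 ± 0.15 (edgeR adjusted p = 9.22e-05 and 0.00285). For rps14, rpl2, rpl20, matK and psbZ it did not pass the test. The value for rpl20 was 1.79 with a 95% interval of 0.26 to 3.32 (edgeR adjusted p = 0.0567). The call for cemA was lost without P1-12 (+0.25 μM Dex) replicate 1 or KRAB (+DMSO) replicate 1, at 0.86 and 1.08, and that for psbE without replicate 1 of either of these P1-12 groups, at 3.01 (0.25 μM Dex left out) and 2.27 (DMSO left out), or without KRAB (+DMSO) replicate 2, at 2.40.

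Scaled to the summed counts of all ATCG loci in place of the whole library, the median of all loci moved to 0.60 in P1-12 (+0.25 μM Dex) minus P1-12 (+DMSO). The members held 62140 of 73050 ATCG counts in P1-12 (+0.25 μM Dex) replicate 1, and 100061 of 130919 in P1-12 (+DMSO) replicate 1. ATCG00480 alone held 24058 and 59812 of them. The scale thus falls with these loci, which makes rises larger and falls smaller, so it is no independent check. On that scale all 24 members called higher remained called and 6 of the 10 called lower remained. Of all 20680 loci, 11138 were called higher and 1847 lower on that scale, so a call for higher there does not set the members apart. atpF rose by 3.46, whereas ATCG00480 fell by 0.39 and ATCG00800 by 0.73. matK and rpl20 were called on that scale, at 0.77 and 1.78, and rps14 and rpl2, which were not called on the library scale, changed sign. The interaction kept 22 of 22 positive calls and 1 of 7 negative calls, that of ATCG00800, beside 3954 positive and 1967 negative calls over all loci. For ATCG00480 the interaction was -0.38 (edgeR adjusted p = 0.232).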

How the data were processed

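Per the labels and the study's methods, the authors isolated RNA from whole seedlings, sequenced paired 150-base reads, and used Trimmomatic for trimming, TopHat2 for alignment (TAIR10) and HTSeq for counts per locus. The deposited values are raw counts. Selection of polyadenylated RNA, strand and the handling of reads with several hits are not given in the sources used here, and each can change plastid counts.

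All 10 libraries entered one edgeR 4.0.16 model of 5 group means (R 4.3.3; TMM scaling, glmQLFit and glmQLFTest, two-sided), over the 20680 loci with at least 50 counts in all. p-values were adjusted over all of them (Benjamini-Hochberg), and a locus was called at an adjusted p under 0.05. The SE was the log2 fold change divided by the square root of F. CPM are counts per 1000000 counts of the library total. The code was tested on simulated data.

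Alternatives were RLE scaling, scaling to the ATCG sum, the study's filter (CPM above 2 in at least 9 libraries), no filter, DESeq2 1.42.0, a replicate block and leaving out each library.

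The members and lists were chosen with earlier results of these data known. Full statistics were meant for the 6 largest called changes in each direction and the 3 largest in other comparisons. As most identifiers could not be paired with a symbol, they were given for the 8 members described by symbol and for 4 others picked after values were seen, and no grouping of the members by complex was made. Results that need a withheld item are not reported here. Coordinates are RefSeq TAIR10.1, matched by symbol.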

Additional observations from a re-analysis of the deposited data

Results flagged for a closer look

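The response to 0.25 μM Dex differed between P1-12 and KRAB by the interaction test of edgeR for 22 members in the positive direction and 7 in the negative direction. That is 44% and 14% of the members, beside 20.8% and 22.8% of all loci. Among the members described singly, the interaction on the log2 scale was 3.57 for atpF, 1.27 for cemA, 3.26 for psbE, 3.94 for ATCG00020, 4.18 for ATCG00140, -0.64 for ATCG00480 and -1.04 for ATCG00800. For MORF2, the targeted gene, it was -1.05. Groups of 2 libraries were too small for a test of outlying samples.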

How the results depend on the processing

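Scaled to all ATCG counts, the members called lower numbered 6 in P1-12 (+0.25 μM Dex) minus P1-12 (+DMSO), 5 against P1-12 (+0.025 μM Dex), 5 against KRAB (+0.25 μM Dex), 0 in KRAB (+0.25 μM Dex) minus KRAB (+DMSO) and 1 in the interaction, and 7 were called higher in P1-12 (+0.025 μM Dex) minus P1-12 (+DMSO). Over all 20680 loci, 1847, 1799, 2391, 11 and 1967 were called lower in the same order, and 921 were called higher. The ATCG sum is made mostly of the members, so this scale is no independent check. With no filter P1-12 (+0.025 μM Dex) minus P1-12 (+DMSO) had 10 higher and 3 lower, beside 1231 and 990 of 24782 loci. KRAB (+0.25 μM Dex) minus KRAB (+DMSO) then had 22 lower, beside 497 of these loci. The cause was not tested. DESeq2 called 2 and 5 lower in these 2 comparisons, beside 507 and 139 of 20680 loci. The study's filter kept 32 of the 50 members.

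Correlations of same-numbered deviations between groups lay between -0.11 and 0.06 over all loci and between -0.37 and 0.27 over the members. A correlation does not register a shift shared by most loci, so whether the replicate numbers pair the libraries was not settled. Over the members the correlation was 0.21 between the P1-12 groups with Dex. In these groups replicate 1 was above replicate 2 in 24 (0.25 μM) and 23 (0.025 μM) of the 24 members called higher. The same held in 10 and 9 of the 10 members called lower, and in 13 and 9 of the 16 not called. The order was thus not particular to the members called higher, and the share over all loci is not given here. With the replicate block, 1 member was lower in P1-12 (+0.025 μM Dex) minus P1-12 (+DMSO) and 6 in KRAB (+0.25 μM Dex) minus KRAB (+DMSO), beside 548 and 111 of 20680 loci. The block changed no other count by over 1.5 times.

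In P1-12 (+0.25 μM Dex) minus P1-12 (+DMSO), signs that changed belonged to results that were not called. Scaled to ATCG counts, rps14 was 0.37 and rpl2 0.023. Leaving out each library, matK ranged between -0.09 and 0.45, psbZ between -0.56 and 0.74 and rps14 between -0.48 and 0.04. rpl20 passed the threshold with no filter, at 1.22, and with the block, at 1.20.

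Leaving out a library leaves 1 library in its group, so counts of members called in such fits are not given here. In P1-12 (+0.25 μM Dex) minus P1-12 (+DMSO) the log2 fold change then ranged between 2.445 and 3.262 for atpF and between 0.761 and 1.501 for cemA. It ranged between -1.11 and -0.863 for ATCG00480 and between -1.487 and -1.148 for ATCG00800. RLE scaling kept every count of members called within 1.5 times. Members with few counts, such as psbZ and psbE, limit what the depth can show.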
